A study of Homo sapiens with 4 samples.

Results

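DCN, LUM, KERA and EPYC lie side by side on chromosome 12, and VCAN lies alone on chromosome 5. Their 5 products, decorin, lumican, keratocan, epiphycan and versican, are proteoglycans, proteins of the extracellular matrix that carry long sugar chains. Contacts of these loci were read from Hi-C maps of the IMR90 cell line, fibroblasts of the human lung. Each map divides the hg19 genome into bins of about 200 kb. The genes were chosen with earlier results of these data known. The locus bins were those overlapping a fixed stretch around the genes on each chromosome, and position was the only criterion for a bin. This gave 3 locus bins on chromosome 12 (chr12:91199513-91797387) and 2 on chromosome 5 (chr5:82600925-82999976). With 10 bins added on each side, the LUM-DCN window held 23 bins and the VCAN window 22, together 45 of 14310 bins (autosomes and X). All 45 were among the 13567 bins kept for analysis, which had at least 50% of their pairs on the chromosome listed in each map.

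The maps describe 4 conditions. IMR90 cells carried ER:HRAS G12V, an oncogenic RAS protein that is active only with 4OHT, from the pLNCX2 vector. Senescent cells (OIS) had received 100 nM 4OHT for 6 days, and growing cells (Grow) had not. The Grow-shA1 and OIS-shA1 cells also carried the pMSCV vector with a short hairpin RNA of the miR30 type against HMGA1, a chromatin protein with a preference for AT-rich DNA. The growing Grow-shA1 cells carried the RAS construct as well. Of the 4 samples in the series, Grow-shA1 and OIS-shA1 have 2 each, and the 2 replicates of a condition were combined into 1 map. The labels do not say whether replicates were separate cultures. The Grow and OIS maps were made by the laboratory in earlier work and match none of the 4 samples, so shA1 and data set cannot be told apart in OIS-shA1 minus OIS or in Grow-shA1 minus Grow. With 1 map per condition there was no spread between replicates, no test was possible, and every difference below is a difference between 2 maps. HMGA1 and the RNA of the 5 genes were not measured in these maps.

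Decorin, lumican, keratocan and epiphycan belong to the small leucine-rich proteoglycans, which bind collagen fibrils and regulate their width and spacing. Decorin also binds TGF-beta, lumican and keratocan are known for the transparency of the cornea, and epiphycan is found in cartilage. Versican belongs to the hyalectans, large proteoglycans that bind hyaluronan, and it is a main component of the provisional matrix laid down by fibroblasts. Link proteins such as the product of HAPLN1, the neighbour of VCAN, hold hyalectans on hyaluronan. In interphase nuclei, gene-rich active chromatin (compartment A) and gene-poor inactive chromatin (compartment B) each contact their own kind, and in many senescent fibroblasts inactive chromatin gathers in foci.

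The bins follow the HindIII sites at which the chromatin was cut. The sequences across the edges of the locus bins are shown here because they fix which part of each gene a value belongs to. All 7 edges fell in the recognition sequence of HindIII (capitals), directly after its first base.
First edge of the EPYC bin, chr12:91199498-91199527, hg19, plus strand: ttttttaaaaaggaAAGCTTtgttgattct
Edge between the EPYC bin and the bin of KERA, LUM and DCN, chr12:91402383-91402412: aagttctttcagatAAGCTTcaaccttggc
Edge after DCN, chr12:91597982-91598011: aaaaaaatctgtaaAAGCTTataagatgat
Last edge of the LUM-DCN locus, chr12:91797373-91797402: taattgaattttgaAAGCTTtttctatagt
First edge of the VCAN start bin, chr5:82600910-82600939: aatttttttataatAAGCTTtatttttaga
Edge inside VCAN, chr5:82799069-82799098: agaaagtgttgaaaAAGCTTaaaagtccaa
Last edge of the VCAN body bin, chr5:82999962-82999991: tgtccagctgaactAAGCTTcctaagtgaa

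The EPYC bin (chr12:91199513-91402397) holds EPYC (ENSG00000083782, chr12:91357459-91398803) and CCER1. The second bin (chr12:91402398-91597996) holds KERA (ENSG00000139330, chr12:91444268-91451801), LUM (ENSG00000139329, chr12:91496406-91505271) and DCN (ENSG00000011465, chr12:91534261-91576994), so these 3 genes share every value given below. All 4 are on the minus strand. The last of the 3 bins (chr12:91597997-91797387), on the side of the DCN start of transcription, holds no protein-coding gene. VCAN (ENSG00000038427, chr5:82767437-82878122, plus strand) crosses a bin edge. Its start lies with the end of XRCC4 in the VCAN start bin (chr5:82600925-82799083), and the rest of the gene lies with the end of HAPLN1 in the VCAN body bin (chr5:82799084-82999976). The GC content of the 5 bins was low, from 34.6% in the bin of LUM and DCN (percentile 3.18 of the kept bins) to 37.1% in the VCAN start bin.

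Promoter sequence was at hand for EPYC and VCAN. It is printed to show how far the AT content of these loci differs at the scale of a promoter, which bins of about 200 kb do not resolve. The 250 bases before each start are from RefSeq on GRCh38.p14, on the strand of the gene, and capitals mark every run of at least 8 bases made only of A and T.
EPYC, chr12:91004973-91005222, minus strand: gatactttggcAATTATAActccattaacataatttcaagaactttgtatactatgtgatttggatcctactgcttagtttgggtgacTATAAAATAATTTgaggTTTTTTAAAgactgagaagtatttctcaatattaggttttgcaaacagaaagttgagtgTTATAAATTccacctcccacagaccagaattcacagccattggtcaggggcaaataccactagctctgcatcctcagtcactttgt
VCAN, chr5:83471494-83471743, plus strand: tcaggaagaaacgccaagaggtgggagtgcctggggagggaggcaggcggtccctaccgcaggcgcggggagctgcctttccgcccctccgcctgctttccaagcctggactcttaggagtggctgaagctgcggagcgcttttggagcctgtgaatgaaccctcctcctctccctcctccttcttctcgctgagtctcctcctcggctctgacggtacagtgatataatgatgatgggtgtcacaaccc
The EPYC promoter was 64.4% A+T, at percentile 93.3 of 35116 RefSeq promoters, and held 4 such runs, the longest of 13 bases. The VCAN promoter was 39.2% A+T, near the median of 42.0%, and held 0. Of all the promoters, 35.2% held at least 1 such run. A run is a description of the sequence and not a binding site.

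The deposited value of a pair of bins is a score that compares its contact with the average for that distance, on a log-like scale whose base is not stated. Differences are therefore given in score units and not as folds. For each bin the compartment score was the first principal component of its chromosome in SD units, positive in A and negative in B. Distal contact with A or with B bins was the mean score over pairs more than 2 Mb apart, with the compartments of the Grow map, and local contact was the mean over pairs up to 2 Mb apart. A difference of more than 0.2 score units was counted, and the share of kept bins past the same size is given as background. The maps listed between 82.9% and 95.8% of the possible distal pairs of the 5 locus bins, with the Grow map highest for each of them. Over all kept bins the median difference of distal contact with B bins was -0.087 in OIS minus Grow (SD over bins 0.180), -0.065 in OIS-shA1 minus Grow-shA1, -0.050 in OIS-shA1 minus OIS and -0.068 in Grow-shA1 minus Grow.

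In the LUM-DCN locus the bin of EPYC was B in growing and A in senescent cells, and the bin of KERA, LUM and DCN was A throughout. The EPYC bin had a compartment score of -0.216 in Grow, 0.563 in OIS, -0.671 in Grow-shA1 and 0.442 in OIS-shA1. The difference was 0.779 in OIS minus Grow and 1.11 in OIS-shA1 minus Grow-shA1. These 2 comparisons share no map, and the differences lay at percentiles 94.0 and 97.9 of the kept bins. The bin of KERA, LUM and DCN had 1.19 in Grow, 1.03 in OIS, 1.17 in Grow-shA1 and 1.28 in OIS-shA1. Its difference was -0.157 without shA1 and 0.115 with it. The bin after DCN was A in all 4 maps too, between 0.881 in OIS and 1.10 in OIS-shA1.

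The locus sat between stretches of chromatin that were B in both growing maps and had higher compartment scores in both senescent maps. Gene-free is used here for bins that hold no protein-coding gene, since non-coding genes were not placed. The 3 gene-free bins on the EPYC side had compartment scores from -0.891 to -0.648 in Grow and from 0.139 to 0.756 in OIS. With shA1 they went from between -1.24 and -1.13 to between -0.189 and 0.593. The 2 gene-free bins beyond the locus on the other side went from -0.927 and -0.550 in Grow to -0.047 and 0.314 in OIS, and from -1.10 and -0.843 to -0.038 and 0.421 with shA1. In all, 17 of the 23 bins of the window were A in Grow, 22 in OIS, 15 in Grow-shA1 and 20 in OIS-shA1. 5 bins went from B to A in OIS minus Grow, against 9.49% of all kept bins, and 5 did in OIS-shA1 minus Grow-shA1, against 8.03%. None went from A to B, against 0.678% and 1.13% of kept bins.

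**Figure D1:**
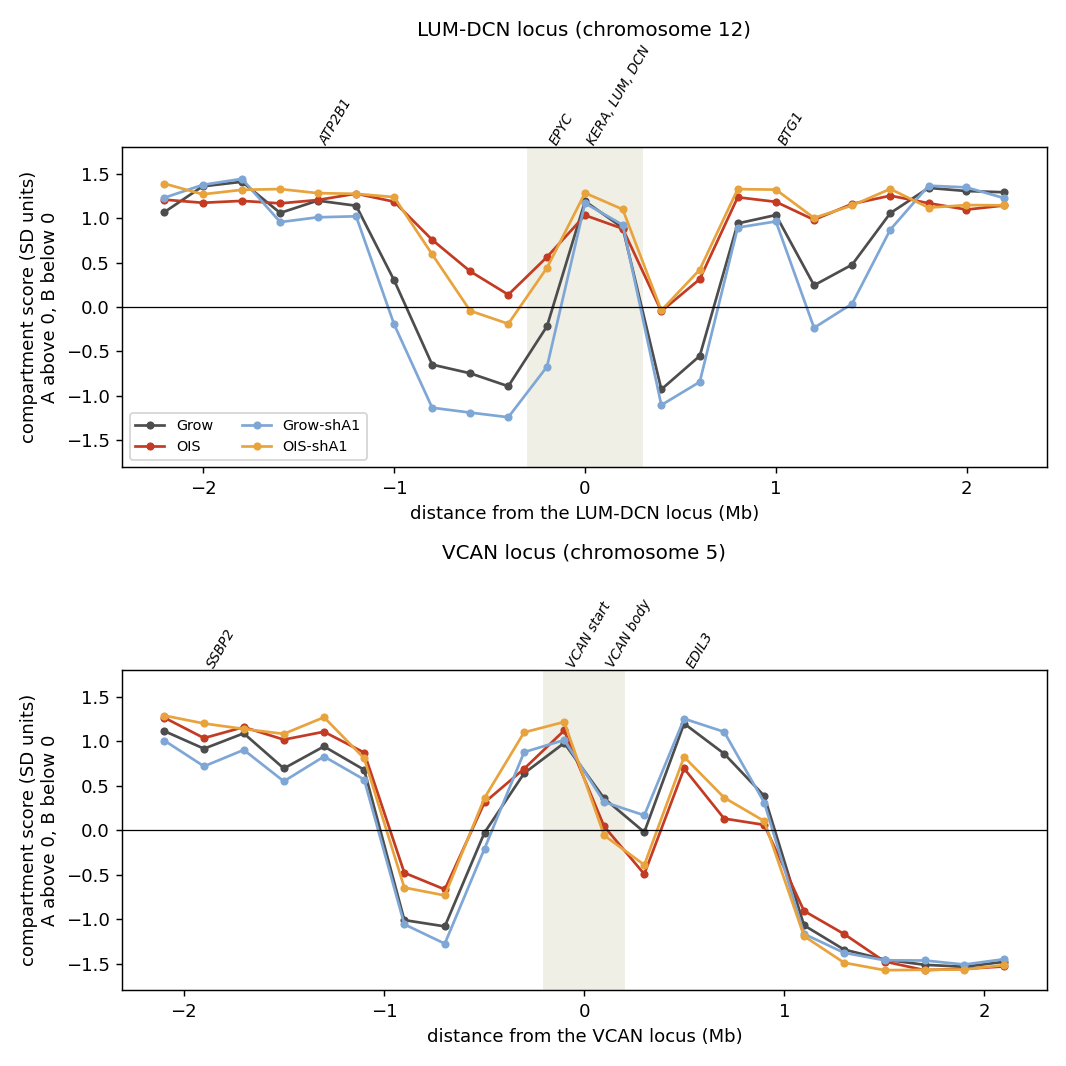
Compartment score in SD units (A above 0, B below 0) of each bin of the LUM-DCN window (top, 23 bins) and the VCAN window (bottom, 22 bins) against the distance from the locus in Mb, 1 point per bin and 1 line for each of the 4 maps. The shaded bins are the locus bins. The bin of KERA, LUM and DCN stays near 1 in every map (1.03 to 1.28). The EPYC bin lies below 0 in Grow and higher in OIS. So do the gene-free bins directly next to the locus, 3 on the EPYC side and 2 on the other. The VCAN body bin is lower in both senescent maps (0.043 and -0.057) than in both growing maps (0.359 and 0.318).

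Distal contacts of the EPYC bin were lower with B bins and higher with A bins in senescence. Its distal contact with B bins was 0.213 in Grow, -0.016 in OIS, 0.315 in Grow-shA1 and 0.050 in OIS-shA1. Both senescent maps lay below both growing maps. The difference was -0.229 in OIS minus Grow over 276 pairs, with an SD over pairs of 0.747, and 107 of the pairs were higher in OIS. With shA1 it was -0.265, with an SD of 0.709, and 102 pairs were higher. These differences lay at percentiles 21.7 and 14.8 of the kept bins, of which 26.4% and 23.3% were lower by more than 0.2. The distal contact of the EPYC bin with A bins was -0.069 in Grow, 0.153 in OIS, -0.252 in Grow-shA1 and 0.097 in OIS-shA1. That difference was 0.222 without shA1, at percentile 95.7 of the kept bins, and 0.349 with it, at percentile 98.7.

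Among the distance bands, the lower contact of the EPYC bin with B bins was greatest from 5 to 10 Mb. Too few A bins were measured in that band for a mean to set beside it. For the 48 B bins from 5 to 10 Mb away the mean score was 0.505 in Grow, -0.289 in OIS, 0.764 in Grow-shA1 and -0.048 in OIS-shA1, a difference of -0.794 without shA1 and of -0.812 with it. For the 56 B bins from 10 to 20 Mb away the differences were -0.295 and -0.288. For the 57 B bins more than 50 Mb away they were 0.017 and -0.034.

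The bin of KERA, LUM and DCN showed little of this in its mean over all distal pairs. Its distal contact with B bins was -0.318 in Grow, -0.259 in OIS, -0.327 in Grow-shA1 and -0.313 in OIS-shA1. The differences in senescence were 0.059 without shA1, at percentile 80.4, and 0.015 with it, at percentile 68.0. With compartments taken from each map they were -0.077 and -0.176. By distance this bin was not uniform. For its 49 B bins from 5 to 10 Mb away the differences were -0.328 without shA1 and -0.373 with it. For its 14 B bins from 2 to 5 Mb away they were 0.742 and 0.337. Its distal contact with A bins was 0.337 in Grow, 0.285 in OIS, 0.310 in Grow-shA1 and 0.450 in OIS-shA1. In the bin after DCN, distal contact with B bins was -0.181, -0.134, -0.199 and -0.271 in the same order of maps.

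Across the window, lower distal contact with B bins was the prevailing direction, the EPYC bin included. The bin of KERA, LUM and DCN and the bin after DCN were not lower by more than 0.2 in either comparison. In OIS minus Grow, 13 of the 23 bins were lower by more than 0.2, against 26.4% of all kept bins, and none was higher, against 4.37%. In OIS-shA1 minus Grow-shA1, 15 bins were lower, against 23.3%, and none was higher, against 5.98%. Both counts depended on processing. The first was 8 after a common centring at each separation (16.3% of kept bins), 4 with unlisted pairs counted as 0 (13.3%), and 20 with compartments taken from each map (38.4%). The second was 8 with unlisted pairs counted as 0 (12.9%). With unlisted pairs as 0 the first count was thus near the share of all kept bins. The differences of the 3 gene-free bins on the EPYC side were from -0.442 to -0.256 without shA1 and from -0.461 to -0.303 with it. Distal contact with A bins was higher by more than 0.2 in 8 bins of the window in OIS minus Grow, against 5.72% of kept bins, and in 15 bins with shA1, against 8.78%. It was lower in none, against 25.7% and 20.6%.

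**Figure D2:**
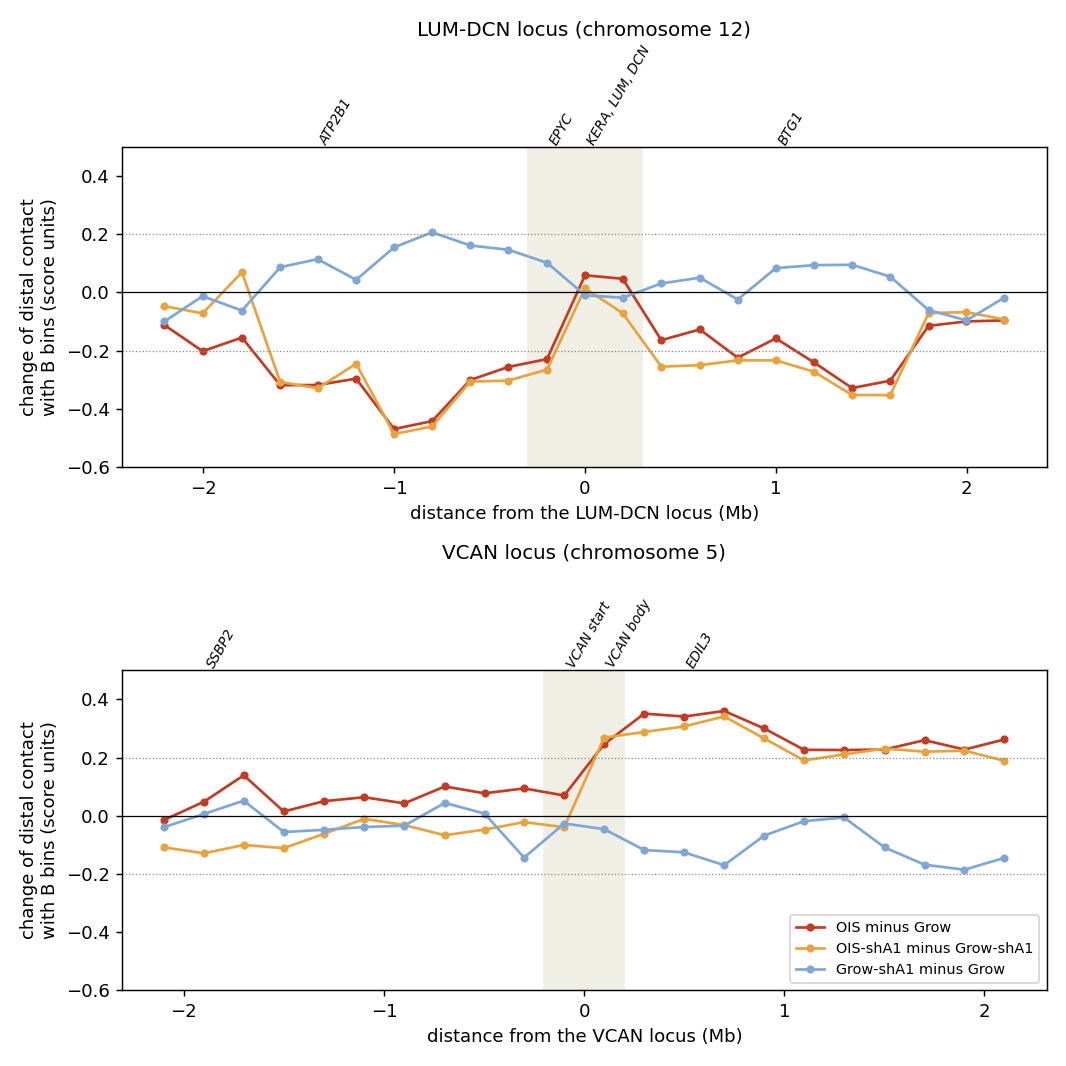
Change of the mean distal contact with B bins in score units for each bin of the LUM-DCN window (top) and the VCAN window (bottom), against the distance from the locus in Mb, 1 line each for OIS minus Grow, OIS-shA1 minus Grow-shA1 and Grow-shA1 minus Grow. Dotted lines mark 0.2 and -0.2, the size counted in the text. In the LUM-DCN window both senescence comparisons lie below 0 in most bins and return to about 0 at the bin of KERA, LUM and DCN (0.059 and 0.015), and in the VCAN window they go from 0.070 and -0.040 at the VCAN start bin to 0.246 and 0.269 at the VCAN body bin.

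Local contacts of the LUM-DCN locus were higher in senescence. Local contact of the bin of KERA, LUM and DCN was 0.698 in Grow, 0.953 in OIS, 0.580 in Grow-shA1 and 0.756 in OIS-shA1. The difference was 0.254 without shA1, at percentile 90.8 of the kept bins, and 0.175 with it, at percentile 89.9. Local contact of the bin after DCN was 1.16, 1.41, 1.03 and 1.37 in the same order, differences of 0.248 and 0.335. Local contact of the EPYC bin was 1.43, 1.58, 1.18 and 1.54, differences of 0.152 and 0.361. The smaller of these was -0.027 after scores were divided by their SD at each separation.

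For the LUM and DCN bin the higher local contact lay mainly in its pairs with the B bins around it. With the 6 bins within 1 Mb that were B in Grow its mean score was -0.273 in Grow, 0.376 in OIS, -0.701 in Grow-shA1 and -0.197 in OIS-shA1, differences of 0.649 and 0.504. With the 3 A bins at the same distance the differences were 0.093 and -0.119. The B bins on both sides showed the difference. Its pair with the gene-free bin next to EPYC (chr12:90996805-91199512) scored -1.04 in Grow, -0.148 in OIS, -1.47 in Grow-shA1 and -1.03 in OIS-shA1. Its pair with the gene-free bin 3 bins beyond (chr12:92002380-92200137) scored -0.664, 0.248, -0.935 and -0.469. In both pairs the senescent map was higher with and without shA1, by 0.897 and 0.440 in the first and by 0.913 and 0.466 in the second. The pair of the EPYC bin with the bin of LUM and DCN itself went the other way, from 1.29 to 1.15 without shA1 and from 1.10 to 1.04 with it.

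In the window, 9 of the 23 bins were higher in local contact by more than 0.2 in OIS minus Grow, against 13.3% of kept bins, and 10 in OIS-shA1 minus Grow-shA1, against 8.12%. 1 bin was lower in each comparison, against 40.8% and 30.4%. After a common centring at each separation, which moved the median over kept bins by 0.149 in OIS minus Grow and by 0.0996 with shA1, the counts of higher bins were 17 and 16, against 29.1% and 18.8% of kept bins. With local pairs up to 1 Mb they were 4 and 5, against 15.0% and 9.23%, so that the first was near the share of all kept bins. The mean score of the pairs that cross a bin, from a bin on its left to a bin on its right within 2 Mb, is low where a bin separates its neighbours. For the EPYC bin it was 0.274 in Grow, 0.573 in OIS, 0.101 in Grow-shA1 and 0.570 in OIS-shA1. For the bin of LUM and DCN it was 0.394, 0.630, 0.263 and 0.669. Crossing contact was higher in both senescent maps for each of the 3 locus bins.

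**Figure D3:**
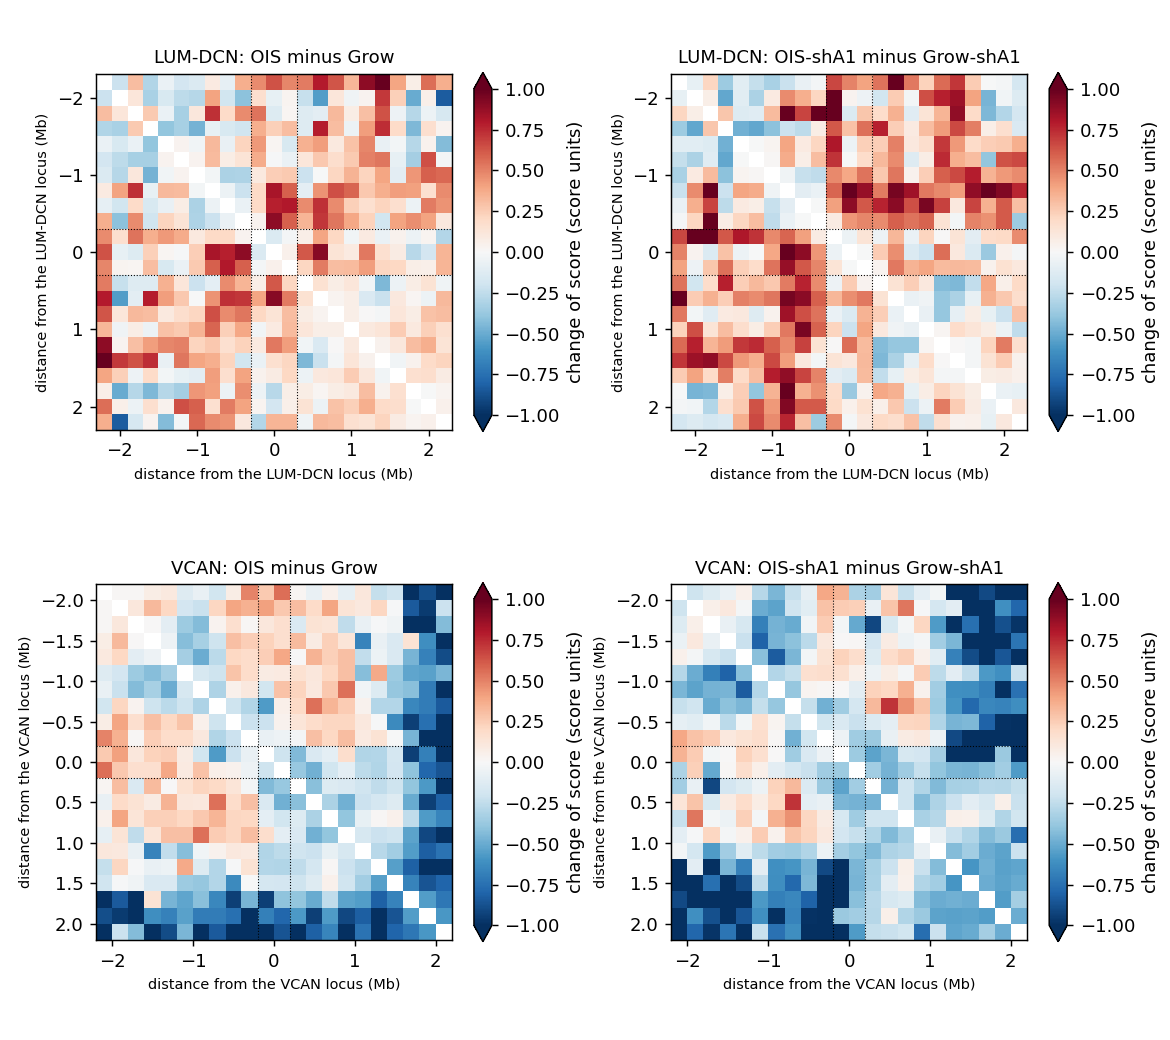
Change of score for every pair of bins within the LUM-DCN window (top) and the VCAN window (bottom), in OIS minus Grow (left) and OIS-shA1 minus Grow-shA1 (right), with the distance from the locus in Mb on both axes and the change in score units as colour (red higher in senescence, blue lower, limited to 1 either way). Dotted lines bound the locus bins and the diagonal is left blank. The LUM and DCN bin has higher contact in senescence with the gene-free bins just outside the locus (0.897 and 0.440 with the bin next to EPYC), and the VCAN start bin has lower contact with the bins beyond EDIL3 (-1.44 and -1.13 with the last bin of the window).

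At the VCAN locus the 2 bins differed in how compartment score and distal contact changed in senescence. The VCAN start bin had a compartment score of 0.982 in Grow, 1.12 in OIS, 1.02 in Grow-shA1 and 1.22 in OIS-shA1, and was A in all 4 maps. The VCAN body bin had 0.359, 0.043, 0.318 and -0.057. Both senescent maps were lower there, and with shA1 the body bin went from A to B. The differences of -0.316 and -0.375 lay at percentiles 8.17 and 5.25 of the kept bins.

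For the VCAN body bin, distal contact with B bins was higher in both senescent maps than in both growing maps. It was -0.011 in Grow, 0.235 in OIS, -0.057 in Grow-shA1 and 0.211 in OIS-shA1 for the body bin. The difference was 0.246 in OIS minus Grow over 352 pairs, with an SD over pairs of 0.632, and 0.269 with shA1, with an SD of 0.640. These lay at percentiles 98.0 and 97.9 of the kept bins, whose median difference was negative in both comparisons. Of the 352 pairs, 223 were higher in OIS than in Grow and 231 in OIS-shA1 than in Grow-shA1. For the start bin distal contact with B bins was -0.268 in Grow, -0.198 in OIS, -0.295 in Grow-shA1 and -0.334 in OIS-shA1, differences of 0.070 and -0.040.

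With A bins it was the start bin that had higher contact in senescence. Its distal contact with A bins was 0.206 in Grow, 0.377 in OIS, 0.175 in Grow-shA1 and 0.368 in OIS-shA1, and both senescent maps were higher, by 0.171 and 0.192. That of the body bin was 0.182, 0.139, 0.097 and 0.080, differences of -0.043 and -0.017, which were 0.0096 and 0.014 after a common centring at each separation. For the body bin the higher contact with B bins was found at 5 to 10 Mb (0.459 without shA1 and 0.525 with it, 25 pairs), at 10 to 20 Mb (0.326 and 0.264, 52 pairs) and at 20 to 50 Mb (0.374 and 0.380, 151 pairs). At 2 to 5 Mb, where 16 B bins were measured, the differences were -0.154 and -0.081. At more than 50 Mb, over 108 pairs, they were 0.039 and 0.107.

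The VCAN body bin lay at the start of a stretch with the same direction. The next 4 bins, those of HAPLN1 and of EDIL3, which encodes an integrin-binding matrix protein, were higher in distal contact with B bins by 0.300 to 0.360 in OIS minus Grow and by 0.266 to 0.341 with shA1. Their compartment scores differed by -0.730 to -0.326 without shA1 and by -0.740 to -0.208 with it. The HAPLN1 bin went from 0.056 in Grow to 0.408 in OIS and from -0.062 in Grow-shA1 to 0.226 in OIS-shA1 in distal contact with B bins. The 6 gene-free bins beyond EDIL3, B in all 4 maps, were higher by 0.226 to 0.262 without shA1 and by 0.189 to 0.231 with it. In all, 11 of the 22 bins of the window were higher by more than 0.2 in OIS minus Grow, against 4.37% of kept bins, and 9 with shA1, against 5.98%. None was lower in either comparison, against 26.4% and 23.3%. All of the higher bins lay on the HAPLN1 side, the body bin included. With unlisted pairs counted as 0 the counts were 6 and 2, against 6.86% and 6.25%, and the second was then near the share of all kept bins. Distal contact with A bins was lower by more than 0.2 in 3 bins without shA1, against 25.7%, and in 4 with it, against 20.6%. It was so in none with unlisted pairs counted as 0, against 2.75% and 1.67%.

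The number of A bins in the VCAN window changed little, with 12 of 22 in Grow, 13 in OIS, 13 in Grow-shA1 and 12 in OIS-shA1. 1 bin, that of TMEM167A and the start of XRCC4, went from B to A in each senescence comparison. The shares of kept bins were 9.49% without shA1 and 8.03% with it. No bin of the window went from A to B without shA1, against 0.678% of kept bins. With shA1 2 did, the VCAN body bin and the HAPLN1 bin, against 1.13%.

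Local contact of the VCAN bins was lower in OIS-shA1 than in Grow-shA1, and without shA1 its direction depended on centring. Local contact of the body bin was 0.650 in Grow, 0.551 in OIS, 0.744 in Grow-shA1 and 0.495 in OIS-shA1. That of the start bin was 0.067, -0.073, 0.064 and -0.211. The differences with shA1, -0.249 and -0.276, lay at percentiles 23.2 and 19.8 of the kept bins, and those without it, -0.099 and -0.141, near the middle, at percentiles 52.1 and 46.9. After a common centring at each separation the latter were 0.051 and 0.0096. For the start bin the change lay on 1 side. With the 10 bins toward lower coordinates, where XRCC4 lies, its mean score was 0.993 in Grow, 1.02 in OIS, 0.930 in Grow-shA1 and 0.971 in OIS-shA1. With the 10 bins toward HAPLN1 and EDIL3 it was -0.858, -1.17, -0.801 and -1.39. In Grow the start bin thus had low contact with that side, and both senescent maps were lower still, by 0.311 and 0.592.

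The pair of the VCAN start bin with the HAPLN1 bin scored -1.67 in Grow, -2.11 in OIS, -1.74 in Grow-shA1 and -2.27 in OIS-shA1. The pair of the VCAN body bin with the HAPLN1 bin, which is its neighbour, scored -0.572, -0.951, -0.569 and -0.914. The start and body bins themselves scored 0.475, 0.268, 0.509 and 0.149 with each other. All 3 pairs were lower in both senescent maps. Crossing contact at the body bin was -0.474 in Grow, -0.421 in OIS, -0.448 in Grow-shA1 and -0.612 in OIS-shA1. In each map this was lower than in any of the 3 bins on either side. In the window, 7 of 22 bins were lower in local contact by more than 0.2 in OIS minus Grow, against 40.8% of kept bins. In OIS-shA1 minus Grow-shA1, 10 bins were lower, against 30.4%. None was higher by more than 0.2 in either comparison, against 13.3% and 8.12% of kept bins. The count of lower bins with shA1 was 5 after a common centring at each separation, against 17.2%.

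Distal contacts were then read by target block, each block being 5 consecutive bins, or about 1 Mb. The blocks named are among the 3 with the highest and the 3 with the lowest difference in OIS minus Grow at each locus, so their values in that comparison are a description, and OIS-shA1 minus Grow-shA1 stands beside them as a comparison with no map in common. For the LUM-DCN locus 93 blocks had enough pairs. Their differences ranged from -1.06 to 1.44 in OIS minus Grow, with 45 blocks higher, and from -1.12 to 1.16 with shA1, with 53 higher. Over the 93 blocks the correlation of the 2 comparisons was 0.804, where neighbouring blocks share the locus and are not independent.

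The highest blocks were those of NAV3 and SYT1, toward lower coordinates. Most of their bins were B in the Grow map, and their compartment in senescence is not given here. NAV3 encodes a neuron navigator protein and SYT1 a synaptic vesicle protein. The mean score of the 3 locus bins with the NAV3 block (chr12:77602769-78600169) was 0.613 in Grow, 2.05 in OIS, 0.497 in Grow-shA1 and 1.65 in OIS-shA1. With the SYT1 block (chr12:78600170-79601599) it was 0.825, 2.20, 0.592 and 1.75. Differences were 1.44 and 1.37 without shA1 and 1.15 and 1.16 with it. The background was every run of 3 kept bins on chromosome 12 paired with a block at a similar separation. Among these pairs, the differences with shA1 lay at percentiles 99.4 (of 4073) and 99.2 (of 4100). Runs overlap and include the locus, so the pairs are not independent.

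All 3 locus bins took part. With the NAV3 block the EPYC bin went from 0.824 to 2.14, the bin of KERA, LUM and DCN from 0.356 to 1.94 and the bin after DCN from 0.660 to 2.07 in OIS minus Grow. With shA1 they went from 0.806 to 1.91, from 0.357 to 1.44 and from 0.329 to 1.60. Each bin was higher with 5 of the 5 bins of the block in both comparisons, and the SD over these pairs was between 0.156 and 0.298. With the SYT1 block each locus bin was likewise higher in 5 of 5 pairs in both comparisons. The next block held PTPRQ, MYF6, MYF5, LIN7A and ACSS3, among them 2 myogenic transcription factors (MYF5 and MYF6), with differences of 0.836 and 0.450, the latter at percentile 90.0.

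The lowest blocks lay on the other side of the locus. A block in which no protein-coding gene starts (chr12:97599034-98599538) had -0.666 in Grow, -1.72 in OIS, -0.353 in Grow-shA1 and -1.38 in OIS-shA1. Its differences were -1.06 and -1.03. There the EPYC bin differed most, by -1.61 and -1.53, against -0.652 and -0.612 for the bin of KERA, LUM and DCN. The block of MED13L, TESC and 5 other genes had differences of -0.902 and -0.840 over 11 pairs, of which the EPYC bin gave 1. The block of ANKS1B, GARIN6, BLTP3B and ACTR6 had -0.897 and -0.733. With shA1 these 3 differences lay at percentiles 3.83, 3.46 and 11.3, less far out than those of NAV3 and SYT1.

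For the VCAN locus 132 blocks had enough pairs. Differences ranged from -0.940 to 0.993 in OIS minus Grow, with 84 blocks higher, and from -0.707 to 0.997 with shA1, with 83 higher. The correlation of the 2 comparisons over these blocks was 0.630. The highest was the block of KIAA0825 and SLF1 (chr5:93600842-94600941), whose bins were B in the Grow map. It scored 0.146 in Grow, 1.14 in OIS, -0.060 in Grow-shA1 and 0.937 in OIS-shA1. The difference with shA1 was 0.997. Among 5897 pairs of 2 consecutive kept bins of chromosome 5 with a block at a similar separation, this was at percentile 99.5. Both bins of the locus took part there, with 0.818 and 0.910 for the start bin and 1.17 and 1.08 for the body bin, each higher in 5 of 5 pairs in both comparisons.

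ARRDC3, an arrestin-domain gene, lies in the second block (chr5:90597660-91600137). It scored -0.102 in Grow, 0.822 in OIS, -0.143 in Grow-shA1 and 0.245 in OIS-shA1, so that the difference was 0.924 without shA1 and 0.388 with it, the latter at percentile 87.1. This was uneven between the bins with shA1, where the start bin differed by 0.016 (SD over 5 pairs 0.848) and the body bin by 0.760. The block of PRR16 (chr5:119599918-120596623) had differences of 0.831 and 0.756, the latter at percentile 98.9. The lowest was a block at the far end of the window (chr5:84599274-85599027), in which no protein-coding gene starts. It scored -0.003, -0.943, 0.308 and -0.346. Its differences, over 8 pairs, were -0.940 without shA1 and -0.654 with it, the latter at percentile 11.5, and with blocks of 10 bins the lowest difference in OIS minus Grow was -0.488. A further block in which no protein-coding gene starts (chr5:98599023-99599900) had -0.424 without shA1 and 0.213 with it, the latter at percentile 72.0. The directions of the 2 comparisons thus differed there.

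**Figure D4:**
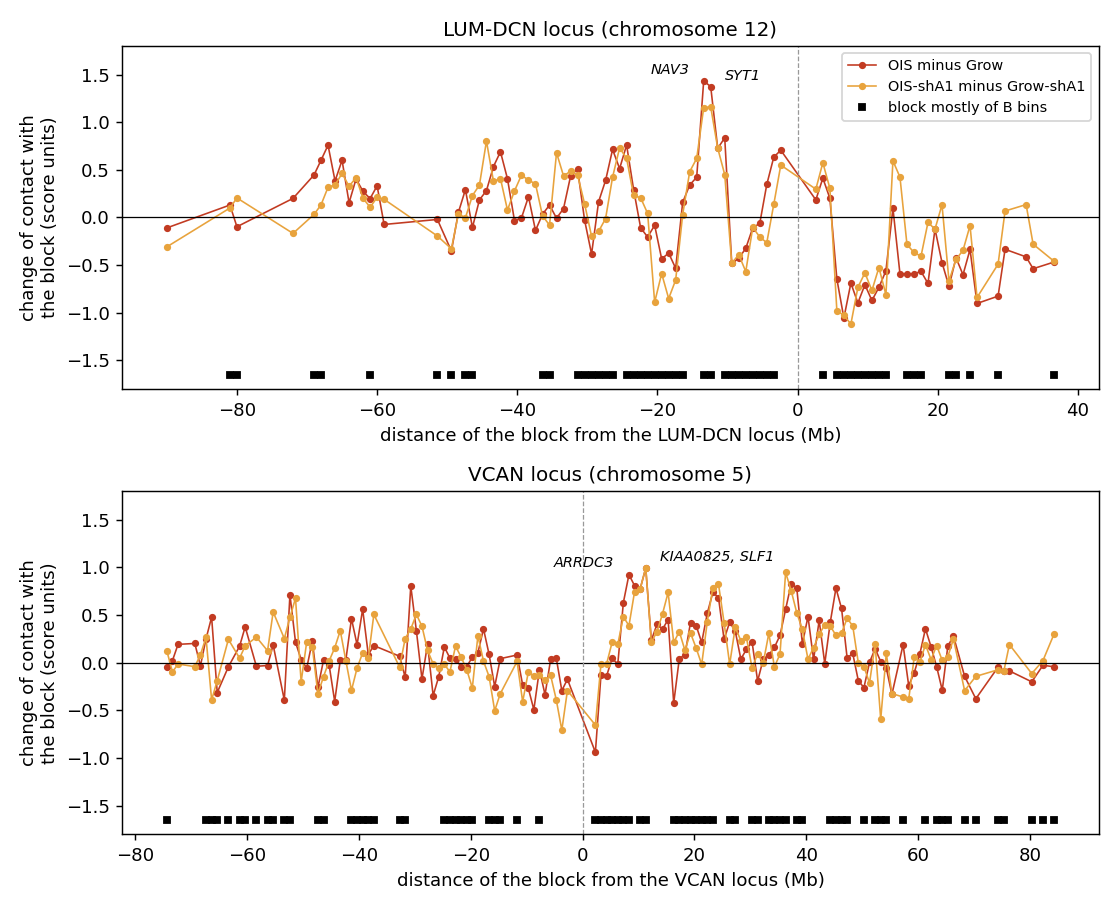
Change of the mean score between the locus bins and each block of 5 target bins, in score units, against the distance of the block from the locus in Mb (LUM-DCN top, 93 blocks, VCAN bottom, 132 blocks), 1 line for each senescence comparison. Squares at the bottom mark blocks mostly of bins that were B in Grow. The NAV3 and SYT1 blocks stand above 1.1 in both comparisons for LUM-DCN. Blocks on its other side lie mostly below 0 in OIS minus Grow and are mixed in direction with shA1. For VCAN the highest block is that of KIAA0825 and SLF1 (0.993 and 0.997).

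Bins whose pattern was most like that of each locus were found from the Pearson correlation of their changes over target blocks in OIS minus Grow, among bins of the same chromosome more than 10 Mb away. For the LUM-DCN locus all 3 were bins of NAV3 (r = 0.783, 0.775 and 0.754 over 81 to 87 blocks), where the median over 538 bins was -0.078. For the VCAN locus they were bins of FBXL17, of PAM, a peptide-amidating enzyme, and of EFNA5 with FBXL17 (r = 0.638, 0.617 and 0.603 over 110 to 125 blocks), where the median over 756 bins was 0.035. In OIS-shA1 minus Grow-shA1, which did not choose them, r was 0.613, 0.549 and 0.588 for the NAV3 bins and 0.331, 0.439 and 0.453 for those on chromosome 5, lower for each of the 6. Blocks along a chromosome are not independent, and these values describe likeness only.

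The comparisons of shA1 maps with maps without it are given for completeness, since data set and shA1 cannot be told apart in them, and OIS-shA1 minus OIS shares the OIS map with OIS minus Grow. In growing cells the shA1 map showed more B-like values in the LUM-DCN window. Compartment score was lower by more than 0.2 in 8 of its 23 bins in Grow-shA1 minus Grow, against 8.08% of kept bins, with -0.455 at the EPYC bin and -0.485 to -0.349 at the 3 bins beside it. Distal contact with B bins was higher by more than 0.2 in 1 bin, against 0.450%, and distal contact with A bins was lower in 3, against 3.95%. Local contact was lower in 6, against 6.43%, the EPYC bin among them at -0.253. The bin of KERA, LUM and DCN differed by -0.022 in compartment score and by -0.010 in distal contact with B bins.

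In the VCAN window distal contact with A bins was lower by more than 0.2 in 1 bin in Grow-shA1 minus Grow, against 3.95% of kept bins. Compartment score was higher by more than 0.2 in 2 bins, against 6.99%, by 0.238 in a bin of XRCC4 and by 0.246 in a bin of EDIL3. Local contact differed by -0.106 to 0.114 over the window and distal contact with B bins by -0.186 to 0.052. In OIS-shA1 minus OIS, distal contact with B bins was lower by more than 0.2 in 3 of the 22 bins of the VCAN window and in none of the LUM-DCN window, against 9.05% of kept bins. Local contact was lower in 6 bins of the VCAN window and in 3 of the LUM-DCN window, against 19.1%. It was higher in the last 2 bins of the VCAN window, by 0.407 and 0.424, and in none of the LUM-DCN window, against 18.8%. At the locus bins themselves distal contact with B bins differed by -0.136 at the VCAN start bin, -0.024 at the body bin, 0.066 at the EPYC bin and -0.054 at the bin of KERA, LUM and DCN.

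The other proteoglycan and link protein genes were placed by the bin of their start of transcription. The list held 12 small leucine-rich proteoglycan genes, the hyalectan genes ACAN, BCAN and NCAN, and HAPLN1 to HAPLN4, 19 genes in 15 bins, all kept. 3 of the 15 bins were higher in distal contact with B bins by more than 0.2 in OIS minus Grow, against 4.37% of kept bins, and 2 were lower, against 26.4%, with a median of 0.059. With shA1 the counts were 3, against 5.98%, and 2, against 23.3%, with a median of 0.065. The lower bins were thus a smaller share of the list than of all kept bins. The medians over all kept bins were -0.087 and -0.065. Higher without shA1 were the bin of ASPN and ECM2 (-0.576 in Grow, -0.320 in OIS, -0.732 in Grow-shA1 and -0.667 in OIS-shA1), that of PODN (-1.09, -0.870, -1.17 and -0.914), and that of HAPLN1 described above. ASPN encodes asporin, a close relative of decorin, and its bin differed by 0.065 with shA1, where the bin of PRELP and OPTC was higher instead, by 0.203.

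The 2 lower bins were those of BGN and ACAN. BGN encodes biglycan, another close relative of decorin, and its bin had -0.191 in Grow, -0.731 in OIS, 0.021 in Grow-shA1 and -0.482 in OIS-shA1. The compartment score of the BGN bin was 0.727, 1.04, -0.330 and 1.11, so that it was B in Grow-shA1 alone. ACAN encodes aggrecan, the large proteoglycan of cartilage. Its bin was B in all 4 maps and had 0.792, 0.537, 0.802 and 0.462 in distal contact with B bins. Of the other hyalectan genes, the BCAN bin differed by 0.063 and 0.148 and the NCAN bin by -0.162 and 0.005, without and with shA1, and the VCAN start bin by 0.070 and -0.040.

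2 fibrillar collagen genes, whose products form the fibrils that decorin and lumican bind, were set beside the loci. The COL1A2 bin had -0.123 in Grow, 0.076 in OIS, -0.188 in Grow-shA1 and -0.095 in OIS-shA1 in distal contact with B bins, and the COL3A1 bin had -0.839, -0.684, -0.859 and -0.737. Both were higher in each senescence comparison, by less than 0.2, and neither changed compartment.

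**Figure D5:**
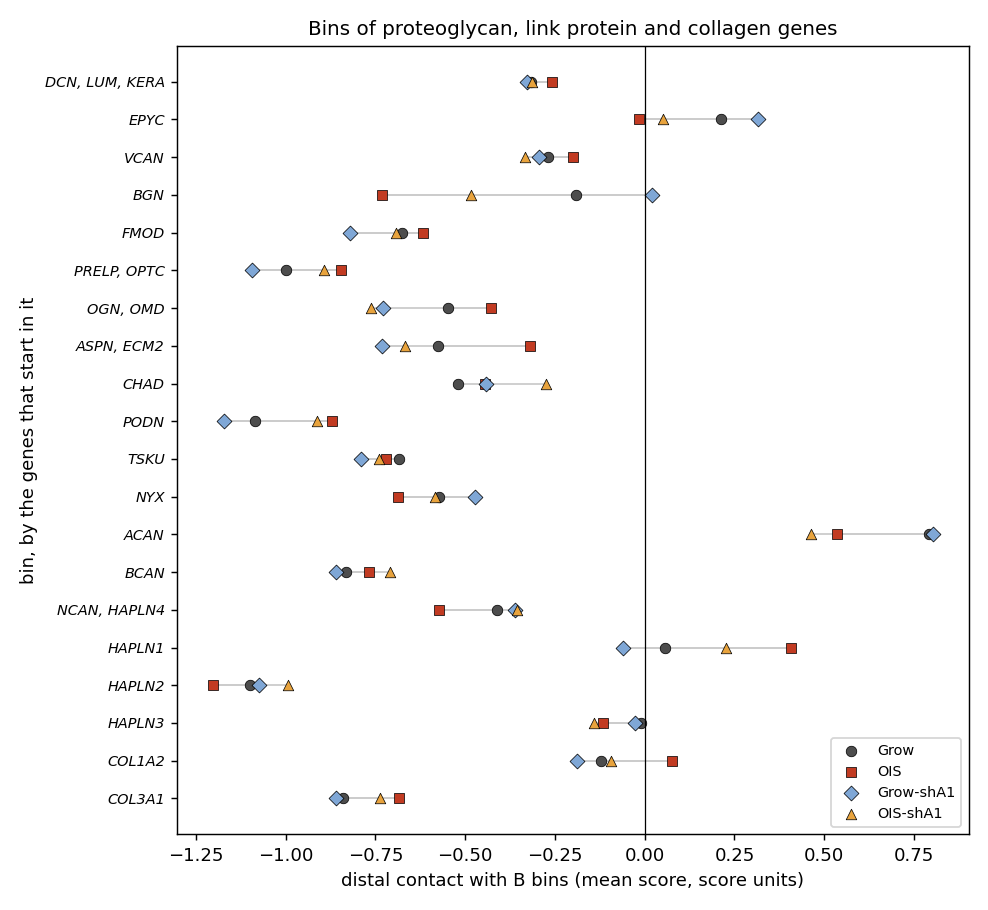
Mean distal contact with B bins in score units for each bin that holds the start of a proteoglycan, link protein or collagen gene, 1 symbol for each of the 4 maps (circles Grow, squares OIS, diamonds Grow-shA1, triangles OIS-shA1) and a grey line over their range. The bin of DCN, LUM and KERA has a narrow range (-0.327 to -0.259), the EPYC and BGN bins lie lower in both senescent maps than in both growing maps, and the HAPLN1 bin lies higher (0.408 and 0.226 against 0.056 and -0.062).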

How the data were processed

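The 4 Hi-C maps were used with the bin list. The authors made them by in-nucleus Hi-C with HindIII. Reads were processed with HiC-Pro on hg19 without artefacts or duplicates, then contacts were binned at about 200 kb, balanced (ICE) and corrected for distance. The deposited score of a pair of bins is relative to the mean contact at its distance, with log base and prior not given in the sources used here. The other deposited values are the start and end coordinates of the bins, which end at the GRCh37 length on all 24 chromosomes. No read counts are given, counting error is unknown, and the share of listed pairs stood in for depth.

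Distal means used pairs of kept bins listed in all 4 maps, at least 10 per mean, and target blocks needed at least 50% of their pairs, which left from 5 to 15 pairs a block. Protein-coding genes were placed with GENCODE lifted to GRCh37, and target blocks were named by the genes that start in them. Named were the 5 genes, the genes of the windows, a list of proteoglycan, link protein and collagen genes, the 3 highest and 3 lowest target blocks of each locus (1 of them is not reported here), and the 3 most similar bins. The members and lists were chosen with earlier results of these data known. The alternatives changed the treatment of values, centring, pairs, bins, compartments, distances, locus bins and block size. The scripts were tested on simulated data. Python 3.11.15, numpy 2.4.6, pandas 2.3.3, scipy 1.17.1 and matplotlib 3.10.9 were used.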

Additional observations from a re-analysis of the deposited data

How the results depend on the processing

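Over the alternatives, 48 differences of the loci (locus means and extremes over target blocks) gave 368 values. Of these, 367 moved by less than 1 SD, taken over kept bins for the means and over target blocks for the extremes. Of the 125 differences of single locus bins, 843 of 850 values did so. The sign differed in 24 of the 368 and 49 of the 850 values. No locus difference of more than 0.2 changed direction. The exception among locus values was the lowest difference over target blocks of VCAN in OIS minus Grow, -0.940 with blocks of 5 bins and -0.488 with blocks of 10. Of 96 counts of window bins past 0.2, 13 moved by more than 1.5 times, and the cause was not tested. With a common centring, the count for LUM-DCN in OIS minus Grow was 8 for lower distal contact with B bins and 17 for higher local contact, with shA1 16 for higher local contact, and for VCAN with shA1 5 for lower local contact. With unlisted pairs as 0, LUM-DCN had 4 and, with shA1, 8 bins lower in distal contact with B bins, VCAN had 6 and 2 higher, and 0 and 0 lower in distal contact with A bins. With compartments from each map, the LUM-DCN count in OIS minus Grow was 20 for lower distal contact with B bins. With local pairs up to 1 Mb, LUM-DCN had 4 and 5 bins higher.

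In OIS minus Grow, the difference of contact with distal B bins ranged from -0.309 to -0.133 for the EPYC bin and from 0.178 to 0.338 for the VCAN body bin. No paired analysis was possible because each condition has 1 map that combines its replicates, and leaving out a replicate was not possible for the same reason. The listed pairs, 82.9% to 95.8% of distal pairs of the locus bins, limit the precision of distal means, and no depth in reads was available.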
